A study of Arabidopsis thaliana and Nicotiana benthamiana and Solanum lycopersicum with 20 samples.

Results

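The nuclear binding of GLK1 and GLK2 was compared in maize leaf cells, in the 4 maize ChIP-seq libraries among the 20 libraries of the series. Lines on chromosomes 1 to 10 were kept, and those on the mitochondrial and plastid genomes and on scaffolds were left out. This left 31428 of the 33089 peak summits in the 4 lists. The study compared GLK binding between leaves of several plant species, and its maize libraries came from an earlier experiment. In the GLK1 libraries, leaf protoplasts of the inbred line B73 transiently expressed maize GLK1 (Zm00001d044785), and in the GLK2 libraries they expressed maize GLK2 (Zm00001d039260). Both TFs carried a biotin tag, were expressed from the p35S-GW-3Avi construct, whose 35S promoter drives strong expression in most cell types, and were pulled down with streptavidin beads. All 4 libraries thus show an overexpressed, tagged TF in isolated cells, and they measure no native GLK. Each TF had 2 replicates. The study calls its replicates biological and describes them, for all of its experiments, as made on separate plants. The labels of these libraries, taken over from the earlier experiment, do not name the protoplast preparations, so p-values measure only the spread between these libraries. A peak list holds no expression values, and the leaf identity of the cells was not checked.

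GOLDEN2-LIKE proteins are plant TFs of the GARP family that bind the promoters of nuclear genes for light harvesting and chlorophyll synthesis, and plants that lack them are pale. In maize, a C4 grass, one member is known for its role in bundle sheath chloroplasts and the other for its expression in mesophyll cells. Chlorophyll is made in the chloroplast by enzymes that are encoded in the nucleus, so that a TF in the nucleus can set the supply of pigment.

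The lists differed in length and in form between the TFs. GLK1 replicates 1 and 2 held 6497 and 4533 nuclear summits, and GLK2 replicates 1 and 2 held 13698 and 6700. The number of GLK1 replicate 1 lies close below that of GLK2 replicate 2, and only GLK2 replicate 1 stands far above the others. The median fold change over the control, the signal of a summit in these lists, was 7.15 and 6.39 in the GLK1 lists and 7.85 and 7.35 in the GLK2 lists. For depth, the study gives a range of reads per maize sample and no value for each library, and fold changes of different lists are set side by side below without being rescaled. The study does report the share of reads in peaks for each library. It was highest in GLK2 replicate 1, which has the longest list, and lowest in GLK2 replicate 2, with the GLK1 libraries between them. Differences in depth, in enrichment, in the length of a list and in the TF cannot be told apart.

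GLK2 peaks more often held several summits. A peak caller can split 1 enriched region into several summits, and 4.72% and 5.90% of the regions in the GLK1 lists were split in this way, against 22.2% and 30.3% in the GLK2 lists. The groups do not overlap. Among the 500 strongest summits of each list, 14.2% and 19.0% lay in such regions in the GLK1 lists, against 66.0% and 57.2% in the GLK2 lists. The difference was as large when each list was cut to its 4533 strongest summits, at 6.82% and 5.90% of the GLK1 regions and 33.99% and 27.0% of the GLK2 regions. With 2 lists per TF, the exact two-sided permutation test gave p = 0.33 for each of these shares, which is the smallest p that it can give.

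Next, the places bound by each TF were compared. A summit counted as reproducible when the other replicate of the same TF had a summit less than 150 bp away, which held for 44.5% and 64.3% of the summits in the GLK1 lists and for 40.9% and 83.7% in the GLK2 lists. Reproducible summits of both TFs were then linked into places wherever neighbours lay less than 150 bp apart. There were 5877 places, of which 2847 were bound by GLK1 and 5021 by GLK2. Both TFs bound 1991 of them. This is 69.9% of the GLK1 places (95% Wilson interval 68.2% to 71.6%) and 39.7% of the GLK2 places (38.3% to 41.0%). The intervals cover counting error only, since places on 1 chromosome are not independent samples.

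Strong places were shared more often than weak ones. The places of each TF were divided by their mean rank of fold change into 4 classes of like size. Among the 712 strongest GLK1 places 91.4% were also bound by GLK2, and among the 711 weakest 47.8%. For GLK2, 71.0% of the 1256 strongest and 16.1% of the 1255 weakest places were also bound by GLK1. In each class the GLK1 places had the higher share, as the plot of shared places by strength shows. Over all classes the shared places are the same 1991 for both TFs, and GLK2 had more places, so its lower share follows from its number of places. A higher share for GLK1 was also seen among the strongest summits before linking. Of the 500 strongest summits in GLK1 replicates 1 and 2, 89.2% and 92.6% had a summit in GLK2 replicate 1, and 91.4% and 92.4% had one in GLK2 replicate 2. Of the 500 strongest in GLK2 replicates 1 and 2, 75.2% and 81.4% had a summit in GLK1 replicate 1, and 73% and 80.6% had one in GLK1 replicate 2. Between replicates of the same TF this share was 97.8% in both directions for GLK1, and 93.8% and 94.4% for GLK2.

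**Figure D1:**
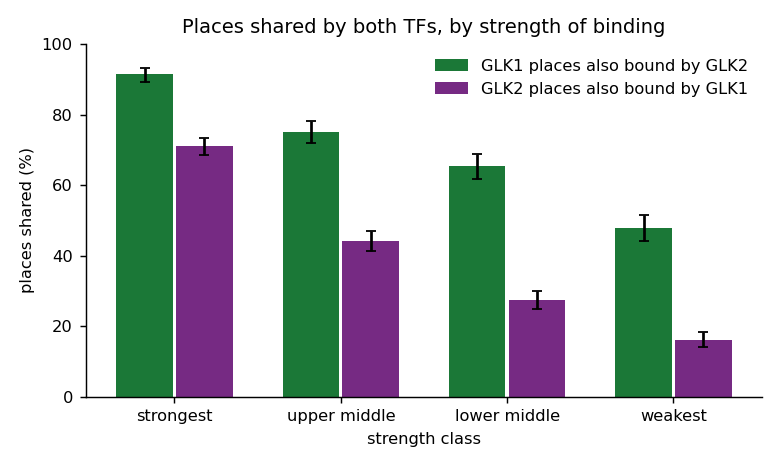
Percentage of places that the other TF also bound (y axis), for 4 classes of the GLK1 and GLK2 places from the strongest to the weakest by their mean rank of fold change (x axis). Bars are shares and error bars 95% Wilson intervals. The share fell to 47.8% in the weakest class for GLK1 places and to 16.1% for GLK2 places.

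Many places of a single TF carried a summit of the other TF that did not reach reproducibility. Of the 856 places bound by GLK1 only, 521 (60.9%) had a summit in 1 or both GLK2 lists. Of the 3030 places bound by GLK2 only, 1218 (40.2%) had a summit in 1 or both GLK1 lists. Single-TF places were also weaker. In GLK1 replicates 1 and 2 the median fold change was 8.53 and 6.24 at GLK1-only places, against 14.8 and 10.1 at shared places. In GLK2 replicates 1 and 2 it was 12.5 and 6.59 at GLK2-only places, against 21.7 and 12.1 at shared places.

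The share of common places depends on which lists enter. When a replicate is left out, every summit of the remaining list of that TF enters. Without GLK1 replicate 2, 44.5% of the GLK1 places were also bound by GLK2, and without GLK2 replicate 2, 18.1% of the GLK2 places were also bound by GLK1.

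Places were spread over the 10 chromosomes in proportions that differed by at most 1.56 percentage points between the TFs. In the full lists the shares of the TFs did not overlap on 8 of the 10 chromosomes (80%), and they were higher for GLK1 on 6 of these. There were 442 GLK1 places and 858 GLK2 places on chromosome 1 and 188 and 307 on chromosome 10. The widest differences were on chromosomes 1, 6 and 5. Chromosome 1 held 15.5% of the GLK1 places and 17.1% of the GLK2 places, and chromosome 5 held 12.1% and 13.2%. Chromosome 6 held 8.50% of the GLK1 places and 7.07% of the GLK2 places. In the full lists, chromosome 6 carried 8.39% and 8.38% of the GLK1 summits and 7.75% and 6.99% of the GLK2 summits. On chromosome 1 the lists carried 16.1% and 16.3% of the GLK1 summits and 16.98% and 17.8% of the GLK2 summits. On chromosomes 3 and 7 the shares of the TFs overlapped. On every chromosome between 64.4% and 75.5% of the GLK1 places were shared, with chromosome 4 lowest and chromosome 3 highest. For GLK2 places the shares ran between 36.6% and 44.2%, with chromosome 4 lowest and chromosome 6 highest.

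Ranks were compared over the 2116 of the 5877 places at which all 4 lists had a summit. Each list was ranked by fold change over these places and expressed as a percentile, in which 100 is the strongest place. The ranks of the replicates correlated with a Spearman rho of 0.73 for GLK1 and 0.83 for GLK2. Between the TFs rho was 0.43, 0.45, 0.48 and 0.52 over the 4 pairs of lists. These values describe 2116 places that share libraries, and no p is given. Within single chromosomes, with 138 to 342 places each, the median rho between the TFs lay between 0.41 and 0.52, below that between GLK1 replicates and below that between GLK2 replicates on each chromosome. The median distance between summits was 39 bp between the GLK1 replicates and 43 bp between the GLK2 replicates. Between lists of different TFs it was 47 and 48 bp with GLK2 replicate 2, and 58 and 59 bp with GLK2 replicate 1. Reproducible summits were chosen for a summit of the same TF less than 150 bp away, and no such rule held between the TFs. The distances are therefore not like measures, and the part of this rule in them was not tested.

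Among places found in all 4 lists, the 10 with the highest mean percentile were chosen for high ranks in every list, so their values are a description. The place with the highest mean percentile, chr8:150441638-150441720 (coordinates are from B73 RefGen_v4 here and below), had fold changes of 268 and 345 in the GLK1 lists and 220 and 163 in the GLK2 lists. It was followed by chr2:2079872-2079983, with 237 and 476 in the GLK1 lists and 447 and 79.3 in the GLK2 lists. At this place the groups overlap, and GLK2 replicate 2 was the lowest list. Among the 10 highest places the fold change was between 114 and 476 in the GLK1 lists and between 72.7 and 447 in the GLK2 lists.

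Some of the places with a summit in all 4 lists were ranked differently by the TFs. Of these 2116 places, 1991 had reproducible summits of both TFs and 125 of a single TF. At 618 of the 2116 places (29.2%) both GLK1 percentiles lay above both GLK2 percentiles, and at 625 places (29.5%) the order was the reverse. With a gap of at least 25 percentile points between the lists of the TFs, 163 places (7.70%) were higher for GLK1 and 160 (7.56%) for GLK2. A limma test on normal scores of the ranks, with Benjamini-Hochberg adjustment over all 2116 places, called 32 places (1.51%) higher for GLK1 and 20 places (0.945%) higher for GLK2 at an adjusted p under 0.05. At an unadjusted p under 0.05 there were 319 and 301. All 52 called places also had the gap of 25 points. When any 1 of the 4 lists was left out (GLK1 replicate 1, GLK1 replicate 2, GLK2 replicate 1 or GLK2 replicate 2), limma called 0 places in either direction, with 171 to 280 higher for GLK1 and 145 to 363 higher for GLK2 at an unadjusted p under 0.05. In these fits the single remaining list is assumed to vary like the lists of the other TF.

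**Figure D2:**
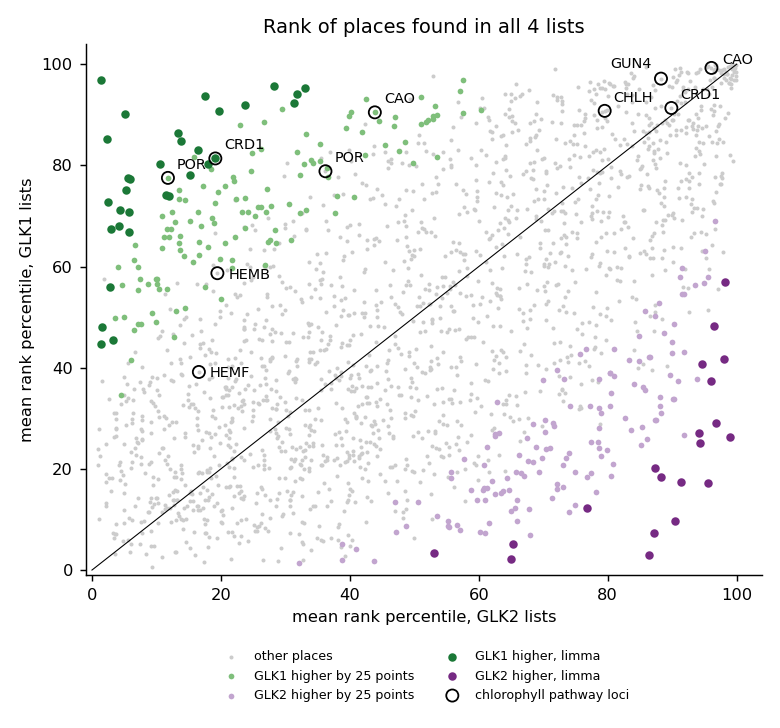
Mean rank percentile over the 2 GLK1 lists (y axis) against that over the 2 GLK2 lists (x axis) for the 2116 places found in all 4 lists, each point a place and the line equality. Dark points are the 32 places called higher for GLK1 and the 20 called higher for GLK2 by limma, pale points the other places with a gap of 25 points or more, and open circles the 10 chlorophyll pathway loci, none of which lies below the line.

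The widest gap in favour of GLK1 was at chr10:1982297-1982402. Its fold changes were 94.9 and 60.8 in the GLK1 lists and 5.18 and 4.07 in the GLK2 lists. Its percentiles were 97.0 and 96.6 for GLK1 and 1.11 and 1.61 for GLK2, so that a place among the strongest for GLK1 was among the weakest for GLK2 (difference in normal scores 4.06 ± 0.34 SE, adjusted p = 0.00923 by limma). The next was chr8:76218084-76218142, with 65.3 and 25.7 in the GLK1 lists, against 8.82 and 4.05 in the GLK2 lists (adjusted p = 0.0381 by limma). At chr6:6608703-6608745 the fold changes were 29.4 and 37.0 for GLK1 and 5.85 and 4.35 for GLK2 (adjusted p = 0.0339 by limma). The GLK1 and GLK2 values overlap at none of these places. Over the 10 places with the widest gap, fold changes were between 16.6 and 94.9 in the GLK1 lists and between 4.05 and 11.1 in the GLK2 lists. All 10 were among the places called by limma, which uses the same ranks as the gap. They lay on 5 chromosomes, with 3 of them on chromosome 2 at chr2:29465238-29465423, chr2:37145926-37145938 and chr2:38063612-38063713.

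In the other direction, the widest gap was at chr9:110888741-110888900. Its fold changes were 4.46 and 3.83 in the GLK1 lists and 47.2 and 32.2 in the GLK2 lists (difference in normal scores -3.003 ± 0.34 SE, adjusted p = 0.0291 by limma). This place had reproducible summits of GLK2 only. Its GLK1 values came from summits at 110888899 and 110888676, the second of them outside the place. At chr6:159806915-159807092 the fold changes were 5.25 and 4.68 for GLK1 and 52.6 and 29.7 for GLK2 (adjusted p = 0.0351 by limma). The GLK1 replicate 2 value came from a summit at 159806915. It lay more than 150 bp from the GLK2 summits at 159807092 and 159807088, so separate sites may be compared there. The strongest GLK2 binding in this set was at chr1:241005611-241006250, a place 640 bp long, with 9.23 and 6.08 for GLK1 and 129 and 74.3 for GLK2 (adjusted p = 0.0291 by limma). These values came from GLK1 summits at 241005981 and 241005920 and from GLK2 summits at 241006220 and 241006250. The summits compared there lay more than 150 bp apart and were joined through others between them, so they may be separate sites. The lists of the TFs do not overlap at these places either. Over the 10 places with the widest gap in favour of GLK2, fold changes were between 3.83 and 9.60 in the GLK1 lists and between 24.1 and 129 in the GLK2 lists, and limma called all 10. Besides the first of them, chr2:18308808-18309154 also had reproducible summits of GLK2 only.

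Places ranked higher for GLK1 were mostly isolated, and places ranked higher for GLK2 often had a close neighbour. Of the 163 places higher for GLK1 by 25 points, 15.3% had another place within 2 kb (95% Wilson interval 10.6% to 21.7%). Of the 160 places higher for GLK2 this share was 49.4% (41.7% to 57.0%), and of the other 1793 places in all 4 lists it was 34.4% (32.2% to 36.6%). These intervals too cover counting error only. Neighbouring places depend on each other, all come from the same 4 lists, and the sets were chosen by rank in these lists. The median distance to the nearest place was 64201 bp for places higher for GLK1 and 2068 bp for places higher for GLK2. Among the 10 places with the widest gap, 0 of the GLK1-higher and 8 of the GLK2-higher places had such a neighbour. The plot of neighbouring places shows the same order at each distance up to 100 kb.

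**Figure D3:**
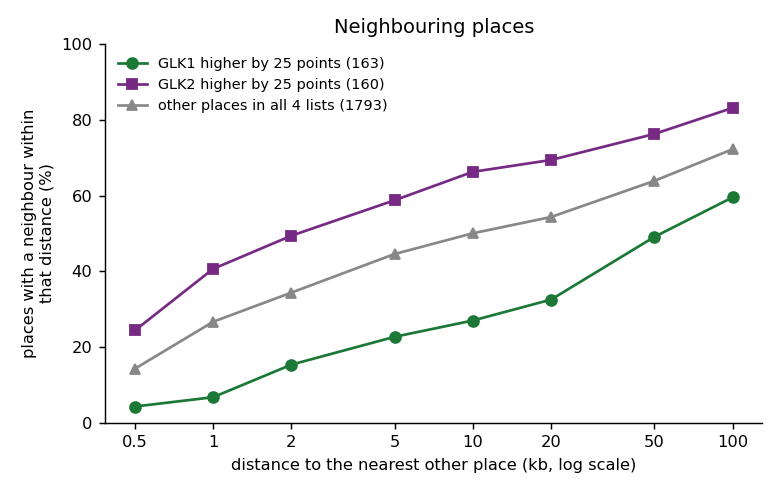
Percentage of places with another place within a given distance (y axis) against that distance in kb on a log axis (x axis), for the 163 places higher for GLK1 by 25 points, the 160 higher for GLK2 and the 1793 other places in all 4 lists. At 2 kb the shares were 15.3%, 49.4% and 34.4%, and the lines keep this order throughout.

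The neighbours were places of either TF. A neighbour bound by GLK1 was found within 2 kb of 7.36% of the places higher for GLK1, 16.9% of those higher for GLK2 and 14.5% of the others, and a neighbour bound by GLK2 near 12.9%, 46.9% and 32.1%. The difference was seen on both sides of a mean percentile of 50, taken over the lists of both TFs. Within each side the places higher for GLK2 can still have the higher GLK2 ranks, since a gap of 25 points defined the sets. Whether the difference remains at like GLK2 rank was not tested. Of the places with a mean percentile above 50, 10.3% of those higher for GLK1 and 56.2% of those higher for GLK2 had a neighbour, and of those below 50, 18.1% and 42.5%. Single-TF places differed in the same way. A neighbour was found for 22.1% of the places with GLK1 alone and for 49.9% of those with GLK2 alone. Over 12 alternative settings of the places and ranks, chosen for this measure after seeing the data, the share ran between 11.9% and 36.9% for places higher for GLK1 and between 42.7% and 67.9% for places higher for GLK2. It was lower for GLK1 in each setting. The highest GLK1 share came without GLK2 replicate 2, where the GLK2 share was 67.5%. GLK2 regions were more often split into several summits, as described above, and the part of this in the neighbour shares was not tested.

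Places ranked higher for GLK1 also lay more often in the middle of a chromosome than those ranked higher for GLK2. The middle was taken as the central 33.3% of the span between the outermost summits. It held 20.9% of the places higher for GLK1 (95% Wilson interval 15.3% to 27.7%), 9.38% of those higher for GLK2 (5.76% to 14.9%) and 15.8% of the others. Here as well the intervals cover counting error only and do not measure the spread between libraries. Of the places with a mean percentile above 50, it held 15.5% of those higher for GLK1, 12.5% of those higher for GLK2 and 16.3% of the others, and of those below 50, 23.8%, 6.25% and 15.5%. The sets thus lay further apart among the weaker places. The middle held 16.3% and 18.5% of all summits in the GLK1 lists and 15.1% and 14.4% in the GLK2 lists. Chromosome 2 carried 33 of the places higher for GLK1 and 17 of those higher for GLK2, and chromosome 1 carried 21 and 32. What separates these sets in sequence or in gene content was not analysed here.

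Finally, loci of photosynthesis genes were examined. LHCA3 and LHCA1 encode chlorophyll-binding antenna proteins of photosystem I. The place at LHCA3, chr9:105957334-105957393, had fold changes of 113 and 132 in the GLK1 lists and 96.4 and 59.7 in the GLK2 lists, with percentiles between 97.2 and 99.1 in all 4 lists. At LHCA1, chr5:87654761-87654784, they were 26.0 and 33.9 for GLK1 and 15.98 and 13.7 for GLK2. All GLK1 values were above all GLK2 values at both loci, though at LHCA3 the ranks overlap and at LHCA1 the difference did not pass the limma threshold (adjusted p = 0.126). The homolog of the chloroplast ARM repeat gene had 1 strong place, chr3:27837650-27837717, with 108 and 96.6 for GLK1 and 128 and 100 for GLK2. There the groups overlap in fold change and not in rank. The percentiles were 97.4 and 98.4 for GLK1 and 98.9 and 99.8 for GLK2 (adjusted p = 0.414 by limma). A weaker place lay in the same region at chr3:27841392-27841509, with 15.6 and 4.47 for GLK1 and 15.3 and 6.53 for GLK2. The region of HEMA, which encodes glutamyl-tRNA reductase at the entry of the pathway to chlorophyll, held no summit in either GLK1 list and 1 summit with a fold change of 4.87 in GLK2 replicate 1.

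Most chlorophyll pathway loci had higher ranks for GLK1. There were 10 such loci, of 7 genes, each located by the mean of its fold changes in the GLK1 lists. This choice used the GLK1 signal, so their direction is not independent evidence. Both GLK1 percentiles lay above both GLK2 percentiles at 8 of the 10 loci, beside 29.2% of all 2116 places, and the reverse held at 0. The gap reached 25 points at 3 loci, beside 7.70% of all places. The difference in normal scores was positive at all 10, with a median of 1.00, against a median of -0.02 over all places. By limma, 1 of the 10 was called higher for GLK1, beside 1.51% of all places.

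That locus was 1 of the loci of CRD1, which encodes a subunit of the cyclase that closes the fifth ring of the pigment. At chr8:2033979-2034009 the fold changes were 29.8 and 23.4 in the GLK1 lists and 12.6 and 6.30 in the GLK2 lists (difference in normal scores 1.77 ± 0.34 SE, adjusted p = 0.0478 by limma). Its percentiles were 78.8 and 84.0 for GLK1 and 21.7 and 16.5 for GLK2, so the groups are well apart. The adjusted p was 0.0609 with the mean over summits and 0.155 with percentiles within the whole list. The other CRD1 locus, chr3:44746814-44746907, had 44.3 and 46.0 for GLK1 and 48.2 and 45.1 for GLK2, and there the groups overlap.

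POR encodes protochlorophyllide oxidoreductase, the light-dependent step of the pathway. At the POR locus chr2:1441559-1441599 the fold changes were 25.8 and 20.8 for GLK1 and 6.89 and 6.67 for GLK2. The percentiles there were 74.1 and 80.9 in the GLK1 lists, against 4.11 and 19.5 in the GLK2 lists. At the other, chr5:25434450-25434490, they were 21.2 and 33.8 for GLK1 and 12.8 and 11.8 for GLK2. The groups do not overlap at either locus, and neither passed the threshold in limma (adjusted p = 0.0503 and 0.12).

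CAO encodes the oxygenase that makes chlorophyll b. The CAO locus chr8:162062066-162062151 had 44.9 and 37.6 for GLK1 and 13.3 and 15.4 for GLK2 (adjusted p = 0.084 by limma). The CAO locus chr3:147731169-147731239 was the strongest of the 10, with 166 and 170 for GLK1 and 97.0 and 43.6 for GLK2. GLK1 was higher in both lists at both loci, but on chromosome 3 the percentiles were within 94.8 and 99.5 in all lists.

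GUN4 activates magnesium chelatase, and CHLH is the subunit of that enzyme which binds the porphyrin. GUN4 at chr10:5285964-5286033 had 92.8 and 72.5 for GLK1 and 49.4 and 35.1 for GLK2. CHLH at chr10:148764422-148764476 had 37.6 and 70.9 for GLK1 and 34.1 and 29.6 for GLK2. The fold changes of the TFs do not overlap at these loci, but the percentiles of CHLH do.

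The remaining loci belong to earlier steps. HEMB, the porphobilinogen synthase gene, had 21.99 and 9.38 for GLK1 and 17.1 and 4.04 for GLK2 at chr5:60300816-60300935, where the groups overlap in fold change and not in rank. HEMF, the coproporphyrinogen oxidase gene, was the weakest locus for GLK1, with 11.4 and 7.79 for GLK1 and 8.88 and 7.20 for GLK2 at chr2:10785417-10785465. The plot of fold changes by locus shows that the ratio of the TFs differed among loci and was close to even at CRD1 on chromosome 3. Of the 10 loci, 9 had no other place within 2 kb. Among all 1991 places bound by both TFs, 33.1% had such a neighbour, so most of those had none either.

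**Figure D4:**
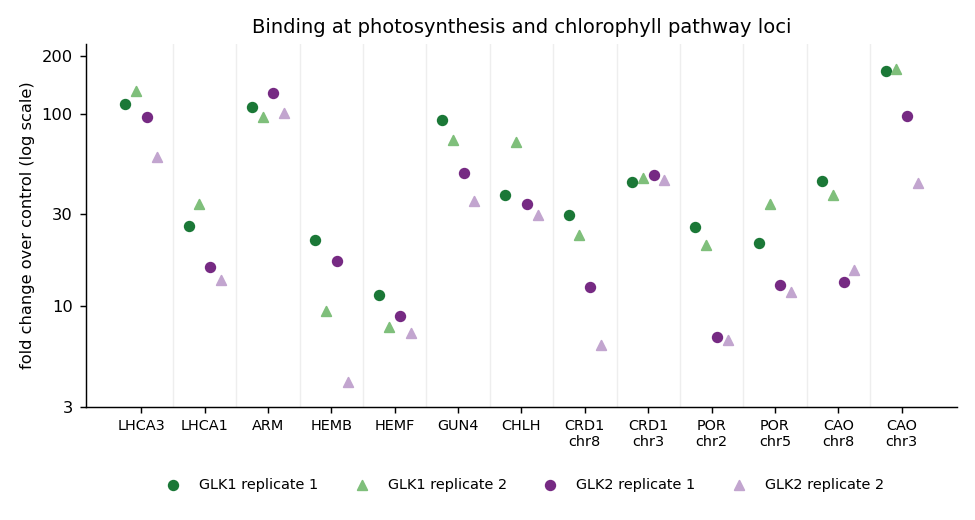
Fold change over the control on a log axis (y axis) at LHCA3, LHCA1, the ARM gene and 10 chlorophyll pathway loci (x axis), with 1 point for each GLK1 and GLK2 list. POR on chromosome 2 had 25.8 and 20.8 in the GLK1 lists and 6.89 and 6.67 in the GLK2 lists, while all lists lay between 44.3 and 48.2 at CRD1 on chromosome 3.

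The highest fold changes of all belonged to 2 groups of places with reproducible summits of a single TF. The 6 places of the GLK1 group lay within 1609 bp at chr9:2408381-2409989. Their fold changes were between 700 and 6078 in GLK1 replicate 1 and between 961 and 5767 in GLK1 replicate 2, whereas no other place had more than 345 and 476 in these lists. Within 2000 bp of the group, GLK2 replicate 1 had 4 summits with fold changes of at most 12.7, and GLK2 replicate 2 had 0. The 6 places of the GLK2 group lay within 3263 bp at chr3:751201-754463. No GLK1 list had a summit there or within 2000 bp. Their fold changes were between 1869 and 11725 in GLK2 replicate 1 and between 493 and 2868 in GLK2 replicate 2, whereas no other place had more than 447 and 163.

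In the GLK1 group the highest place was the last, chr9:2409965-2409989, with 6078 and 5767 in the GLK1 lists and 7.99 in GLK2 replicate 1. In the GLK2 group the highest place was chr3:751201-751205 with 11725 and 2868 in the GLK2 lists, and it lay 1550 bp from its nearest neighbour. Each TF was expressed from its own construct, and reads from a construct and reads from bound chromatin cannot be told apart in a peak list. Whether either group lies at the gene of the TF that was expressed was not analysed here. Without these 12 places, a choice made after seeing the data, 70.1% of the GLK1 places and 39.7% of the GLK2 places were shared.

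**Figure D5:**
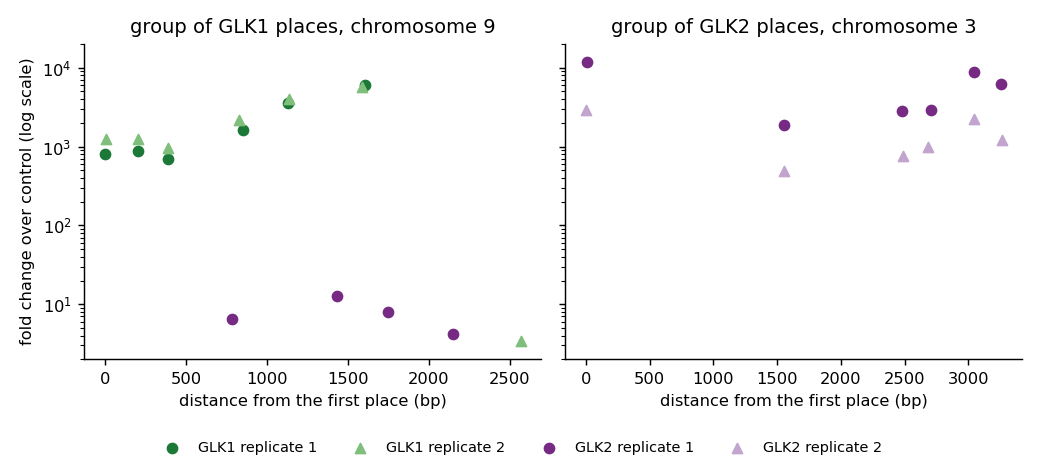
Fold change over the control on a log axis (y axis) against distance in bp from the first place of the group (x axis), for every summit in or within 2000 bp of the GLK1 group on chromosome 9 (left) and the GLK2 group on chromosome 3 (right), with 1 colour and symbol for each list. GLK1 points on chromosome 9 reach 6078 and the GLK2 points beside them at most 12.7, and on chromosome 3 all points are of GLK2.

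Outside these groups, single-TF places were weaker. The next strongest of GLK1 only, named after its values were seen, was chr4:20549461-20549558, with 221 and 71.2 in the GLK1 lists and no summit in either GLK2 list. For GLK2 it was chr3:198417707-198417738, with 136 and 71.5 in the GLK2 lists. GLK1 replicate 1 had a summit with 118 there, and GLK1 replicate 2 had none less than 150 bp away. A GLK2-only place 380 bp from it, chr3:198417304-198417381, had 134 and 67.3 in the GLK2 lists and 47.1 in GLK1 replicate 2. These GLK1 summits lay at 198417623 in replicate 1 and 198417467 in replicate 2. Both GLK1 replicates thus had a summit in this region, and only the distance between them kept them from counting as reproducible.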

How the data were processed

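The members and gene lists were chosen with earlier results of these data known. Per the study's methods, the authors aligned reads with Bowtie2 2.3.2 to B73 RefGen_v4, filtered them and removed duplicates with SAMtools, and called summits for each library with MACS2 2.2.1. The control and any subsampling are not given in the sources used here. The deposited lists hold windows of 150 bp and, for each summit, its fold change over the control. They also hold the −log10 of the p-value and q-value by the authors, of which q served in alternatives only.

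Places, ranks and shares were computed from these lists as described in the report. Normal scores of ranks were fitted with limma 3.58.1 in R 4.3.3, without a block, and tested on simulated data. Named were the 10 places with the highest mean percentile, the 10 with the widest gap in each direction, the 5 strongest single-TF places of each TF, all in the groups described, and loci drawn or tabulated by the study. Chlorophyll loci were located where a tabulated value equalled the mean of the GLK1 fold changes at exactly 1 place (relative tolerance 1e-05). A maize genome and annotation were not used here. Alternatives covered the distance, filters, list length, sequences, single replicates, signal, scale and gap. Python 3.11.15, pandas 2.3.3, numpy 2.4.6, scipy 1.17.1 and matplotlib 3.10.9 were used. Other species were not analysed here.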

Additional observations from a re-analysis of the deposited data

Results flagged for a closer look

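Summits outside chromosomes 1 to 10 entered no comparison and were listed for their number, with no control samples to set them against. On the mitochondrial genome, GLK1 replicates 1 and 2 had 663 and 618 summits, against 29 in GLK2 replicate 1 and 0 in GLK2 replicate 2. They made up 9.15% and 11.8% of the GLK1 lists and 0.21% of the GLK2 replicate 1 list, with a median fold change of 28.01 and 25.4 for GLK1 and 4.27 for GLK2 replicate 1. On the plastid genome, GLK1 replicates 1 and 2 had 7 and 2 summits, and GLK2 replicates 1 and 2 had 2 and 3. Unplaced scaffolds carried 79 and 71 summits in the GLK1 lists and 112 and 75 in the GLK2 lists. When these sequences were included, 60.02% of the GLK1 places were shared with GLK2.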

How the results depend on the processing

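The shares of common places moved with the definition of a place. With summits within 75 bp, 52.8% of the GLK1 places and 29.6% of the GLK2 places were shared, and with lists cut to the shortest, 57.8% and 50.4%. With organelles and scaffolds the GLK1 share was 60.02%. Without 1 replicate the shares ran between 44.5% and 83.6% for GLK1 places and between 18.1% and 56.9% for GLK2 places. The limma calls for GLK1 and GLK2 were 56 and 57 with a fold change and −log10 q of 5 or more, 7 and 12 with lists cut to the shortest, 19 and 11 with the mean over summits, 977 and 712 with absent lists at the lowest rank, 2 and 6 with percentiles within the whole list, and 288 and 203 with centred log2 fold changes. With −log10 q as signal 38 were called for GLK2, and with only the GLK2 lists cut to the shortest, an alternative chosen after seeing the data, 13 for GLK1. Without 1 replicate 0 were called in either direction. Same-numbered replicates deviated together with a correlation of only 0.01. Ranks within a list remove any shift shared by the whole list, so this value cannot show whether the lists were made in pairs. A fit with the replicate number as a block called 109 and 107 places, and these included all 52 of the fit without it. Places with a gap of 25 points numbered 862 and 623 with absent lists at the lowest rank. With summits within 75 bp they numbered 106 for GLK1 and 114 for GLK2. With percentiles within the whole list they numbered 44 for GLK1 and 124 for GLK2, so the near balance of directions depends on ranking over the same places. Without 1 replicate they ran between 240 and 343 for GLK1 and between 244 and 391 for GLK2, where fewer lists have to be separated. With any gap above 0 there were 618 and 625, and with a gap of 10 points 375 and 374. The median rho between the TFs was 0.42 with a fold change and −log10 q of 5 or more and 0.26 with absent lists at the lowest rank, and between 0.48 and 0.51 without 1 replicate. At single loci the difference turned at LHCA3 to -0.028 with percentiles within the whole list, at the strong ARM place to 0.29 with centred log2 fold changes, at the weak ARM place to -0.065 with −log10 q and -0.19 with percentiles within the whole list, and at CRD1 on chromosome 3 to -0.087 and -0.14 with the same settings. The loci gave 63 of 84 values with the same call and direction. Of the rest, 13 passed the limma threshold only in the alternative, among them values at both POR loci, 2 passed only in the main fit, and 6 changed direction. Beyond what is stated here, the cause of these shifts was not tested. The depth of each single library is not given and the enrichment differed between libraries, which limits what the absence of a summit can show.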
